A study of Mus musculus with 10 samples.

Results

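The 6 enzymes of the urea cycle and its entry step were followed across the liver lobule and across 4 times of day in single mouse hepatocytes, the main cells of the liver parenchyma. The members were chosen by name, as the rows nags, cps1, otc, ass1, asl and arg1 among 14812 gene entries, and all 6 were present and passed the filter on low counts in every test. The series holds 18378 cells in 10 libraries, each with the number of mRNA molecules told apart by a unique molecular identifier (UMI). The libraries fall into 4 groups by zeitgeber time (ZT), hours counted from lights on by convention: 3 at ZT0 (A, B and C), 2 at ZT6 (A and B), 3 at ZT12 (A, B and C) and 2 at ZT18 (A and B). All groups share the same background: male C57BL/6 mice aged 3 months on regular chow without restriction, anaesthetized with ketamine and xylazine, whose hepatocytes were freed with collagenase, purified on Percoll and made into libraries with the version 2 kit of 10x Chromium for 3' ends. No genotype, diet or drug differs between the groups, and the labels give neither the number of mice behind a library nor the lighting schedule. The spread between libraries, on which every p-value rests, may therefore be technical in part.

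The urea cycle turns toxic ammonia into urea for excretion. In mitochondria, Nags makes N-acetylglutamate, the obligate activator of Cps1; Cps1 condenses ammonia and bicarbonate into carbamoyl phosphate; Otc joins this to ornithine as citrulline. In the cytosol, Ass1 couples citrulline to aspartate, Asl splits the product into arginine and fumarate, and Arg1 releases urea and restores ornithine. Blood enters the lobule at the portal vein and leaves at the central vein, and urea synthesis is classically assigned to the periportal side, with glutamine synthesis taking up the ammonia that reaches the central vein.

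In the GRCm38 build with GENCODE M21, the genes lie on different chromosomes: Nags at chr11:102145513-102149477 on the plus strand, Cps1 at chr1:67123026-67231259 (plus), Otc at chrX:10252305-10321024 (plus), Ass1 at chr2:31470207-31520672 (plus), Asl at chr5:130011258-130029247 (minus) and Arg1 at chr10:24915221-24927484 (minus). All are protein coding. Nags overlaps the antisense gene Gm11586, which is also an entry in the files, and the sources used here do not say whether counting used strand, so reads of the 2 genes cannot be told apart from these counts. The RefSeq promoter table (GRCm38.p6) held 3 members, shown because their gradients across the lobule were unlike: Ass1 had the largest, Otc a smaller one, and Nags none past the threshold. Cps1, Asl and Arg1 had no entry. Each window runs from 250 bases before to 50 bases after the annotated start, 5′ to 3′ on the plus strand, at chrX:10252055-10252354 for Otc, chr2:31470020-31470319 for Ass1 and chr11:102145263-102145562 for Nags. Capitals mark matches to GGGCGG, a GC box, on either strand.
Otc promoter: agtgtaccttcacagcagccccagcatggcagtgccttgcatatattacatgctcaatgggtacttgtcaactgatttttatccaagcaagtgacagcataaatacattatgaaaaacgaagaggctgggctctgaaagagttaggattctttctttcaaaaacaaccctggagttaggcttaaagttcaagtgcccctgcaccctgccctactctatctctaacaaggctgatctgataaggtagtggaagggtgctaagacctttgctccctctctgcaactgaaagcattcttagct
Ass1 promoter: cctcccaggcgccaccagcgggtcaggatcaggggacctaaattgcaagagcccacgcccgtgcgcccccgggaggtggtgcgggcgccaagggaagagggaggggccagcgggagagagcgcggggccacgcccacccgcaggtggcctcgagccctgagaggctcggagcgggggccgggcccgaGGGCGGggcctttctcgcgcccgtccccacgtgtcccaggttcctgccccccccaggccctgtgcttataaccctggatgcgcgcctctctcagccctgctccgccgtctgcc
Nags promoter: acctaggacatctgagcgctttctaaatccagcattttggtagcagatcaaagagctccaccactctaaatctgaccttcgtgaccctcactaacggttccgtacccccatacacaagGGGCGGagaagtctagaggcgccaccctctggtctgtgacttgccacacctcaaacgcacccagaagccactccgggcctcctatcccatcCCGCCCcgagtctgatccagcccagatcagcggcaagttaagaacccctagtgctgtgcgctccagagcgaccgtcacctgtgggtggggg
The Ass1 window had 74.0% G and C and 27 CpG dinucleotides, the Nags window 57.7% and 14, and the Otc window 44.3% and 1, beside medians of 52.7% and 7 over 32851 promoters of the same length. GGGCGG was found once in Ass1, with its first base 63 bases before the start, and at 2 places in Nags, 132 bases before the start on the gene's strand and 41 bases before it on the opposite strand, where the printed strand reads CCGCCC. It was not found in the Otc window, and 35.7% of all promoters held it. TATAAA and CCAAT, searched on both strands, were in none of the 3 windows and in 13.6% and 37.4% of all promoters. A match describes the letters only.

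Libraries held 710 to 2860 cells and 1454623 to 7144803 UMIs, the median cell had between 1588 and 2662, and the 6 mRNAs together took 0.379% to 0.655% of a library's UMIs. Levels below are counts per 1000000 UMIs (CPM). The 5 hepatocyte markers summed to at least 30959 CPM in each library, while the summed markers of other cell types reached at most 14.5 CPM for endothelial cells (at least 2.75; Clec4g at 0 throughout), 5.24 for macrophages (Clec4f and Csf1r at 0), 0.609 for lymphocytes (Cd3e and Cd79a at 0) and 10.3 for stellate cells. Neutrophil markers reached 7.70 CPM in ZT12B, whose 55 UMIs were all in pericentrally ordered cells. Some libraries stand apart. ZT18A held 117 Xist UMIs (36.8 CPM) although all mice are labelled male, beside 0 or 1 in each other library, and 4 Y-linked mRNAs were present in all 10. Haemoglobin mRNAs reached 293 CPM in ZT18B and 0.338 to 8.80 CPM elsewhere. ZT0C, ZT12A and ZT12C had the most Glul, the mRNA of glutamine synthetase at the central vein (786, 619 and 1321 CPM, beside 86.0 to 245 in the other 7). The number in the 10x sample index given in the labels, called the index column here, was 3 for ZT0A and ZT12A, 5 for both C libraries, 7 for ZT0B, ZT12B and both ZT6 libraries, and 4 for ZT18 alone, so that column 4 and ZT18 cannot be told apart.

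The first question was whether the members follow the time of day in the hepatocytes as a whole. Only Arg1, the enzyme that releases urea, did so by the test: it was lowest at ZT6 and highest at ZT18. The other 5 mRNAs showed no time effect past the threshold, and in several the libraries of one time spread as widely as the times.

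Among the mitochondrial steps, Nags was at 29.5, 38.2 and 48.5 CPM at ZT0 (A, B and C), then 32.3 and 27.0 at ZT6, 34.4, 34.4 and 32.1 in the ZT12 libraries, and 43.7 and 34.8 at ZT18. The ZT0 libraries alone spanned nearly the whole range, and the 1570 Nags UMIs in all make it the least precisely measured member. Cps1 was at 2891, 2710 and 2797 CPM at ZT0, then 2222 and 1977 at ZT6, 4076, 1755 and 3949 in the ZT12 libraries, and 2608 and 2491 at ZT18. ZT12 thus held both the highest and the lowest Cps1 of the series. Within an index column, Cps1 rose from 2891 to 4076 CPM between ZT0A and ZT12A and from 2797 to 3949 between ZT0C and ZT12C, but was 2710 in ZT0B and 1755 in ZT12B. Otc was at 459, 316 and 442 CPM at ZT0, then 331 and 350.0 at ZT6, 476, 344 and 433 in the ZT12 libraries, and 427 and 385 at ZT18, and its groups overlapped, with both B libraries of ZT0 and ZT12 near the ZT6 level.

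Among the cytosolic steps, Ass1 was at 645, 789.8 and 1043 CPM at ZT0, then 754 and 727 at ZT6, 689, 629 and 933 in the ZT12 libraries, and 605 and 575 at ZT18. Both ZT18 libraries lay below the other 8, a separation whose share over all genes was not counted, and both C libraries were the highest. Asl was at 226, 257 and 178 CPM at ZT0, then 227 and 265 at ZT6, 402, 261 and 317 in the ZT12 libraries, and 303 and 296 at ZT18. The ZT18 values were above all ZT0 and ZT6 values but inside the ZT12 range, and the share of all genes with this order was not counted. Arg1 was at 812, 605 and 646 CPM at ZT0, then 516 and 535 at ZT6, 809, 765 and 886 in the ZT12 libraries, and 1223 and 1054 at ZT18. Both ZT18 libraries were above the other 8, a separation that 6.14% of all genes tested also showed, and ZT0 and ZT12 overlapped. Both ZT6 libraries were below the other 8, and the share of all genes with that separation was not counted.

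**Figure D1:**
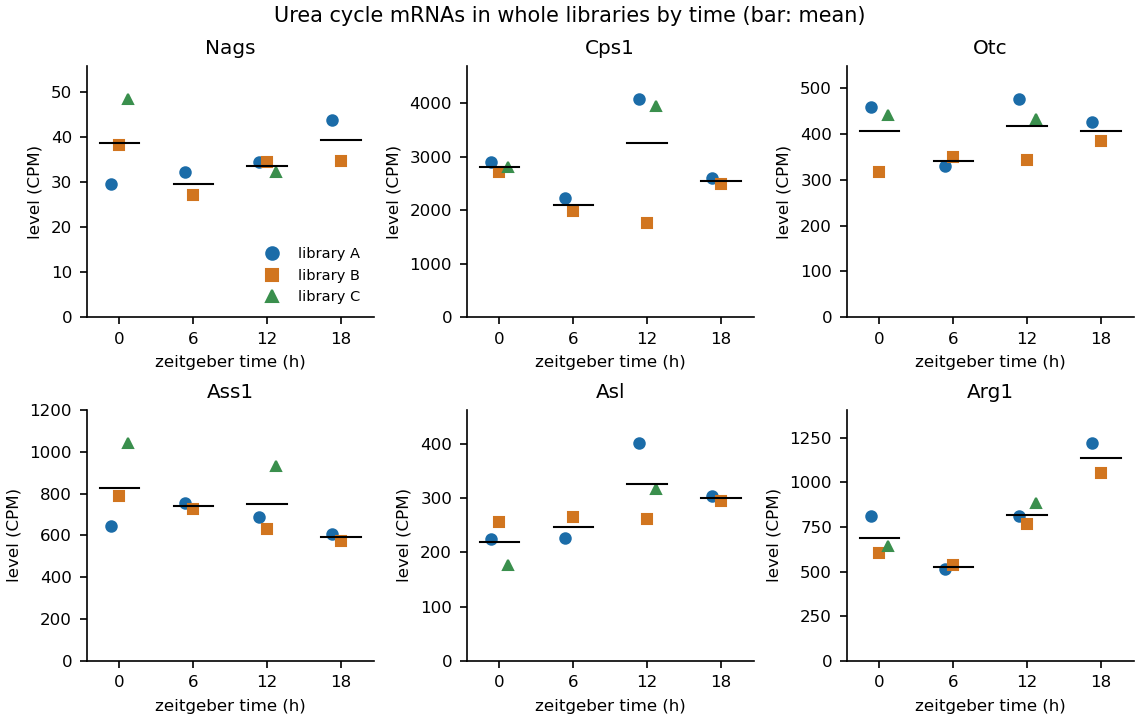
Level of each urea cycle mRNA (CPM, linear axis from 0) in the 10 libraries against zeitgeber time; symbols give the library letter and bars the mean of a time. Arg1 runs from 516 CPM at ZT6 to 1223 at ZT18 without overlap between those times, while Cps1 at ZT12 spans 1755 to 4076.

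A 24-h wave was fitted to the library sums of all 8908 genes with edgeR; the amplitude is how far, in log2 units, the peak stands above the mean. Of the 6 members, 1 passed (5.14% of all genes did): Arg1, with an amplitude of 0.60, a fitted peak at ZT17.7, a peak 2.28 times the trough and an edgeR adjusted p of 0.0371. The amplitude was 0.29 for Nags (edgeR adjusted p = 0.270), 0.27 for Asl (0.368), 0.19 for Ass1 (0.589), 0.18 for Cps1 (0.843) and 0.17 for Otc (0.696), and the median was 0.23 over the members and 0.25 over all genes. The Arg1 call is not firm, although its amplitude kept to 0.55 to 0.64 on leaving out 1 library: without ZT0B, ZT6A, ZT6B, ZT12B, ZT12C, ZT18A or ZT18B its edgeR adjusted p was 0.0530, 0.142, 0.109, 0.0678, 0.0517, 0.201 and 0.125, with the index column as a block 0.322 (amplitude 0.42), and without both ZT18 libraries 0.484 (0.53). Between pairs of times, the call among members was Arg1 at ZT18 against ZT6, 1.19 ± 0.27 log2 units (SE) higher, edgeR adjusted p = 0.0288 (3.79% of all genes passed), lost on leaving out either ZT6 or either ZT18 library (0.150 to 0.238). The difference was then 1.10 to 1.27 log2 units, with 1 library left at a time that is assumed to vary like the other groups. In the other 5 pairs edgeR and limma-voom called 0 members, with shares over all genes of 0.718% for ZT6 against ZT0, 3.44% for ZT12 against ZT0, 1.11% for ZT18 against ZT0, 0.595% for ZT12 against ZT6 and 4.85% for ZT18 against ZT12. At an unadjusted p under 0.05, 1 member passed in each of ZT12 against ZT6, ZT18 against ZT0 and ZT18 against ZT12, by both tools, where 12.2%, 14.2% and 20.2% of all genes did, and 0 in ZT6 against ZT0 and ZT12 against ZT0 (13.7% and 15.5% of all genes). The member was Arg1 by edgeR, 0.58 ± 0.25, 0.70 ± 0.24 and 0.61 ± 0.24 log2 units (SE) higher at the later time; 1 of 6 is close to these shares. Index column 4 holds ZT18 alone, so with the index column as a block the ZT18 libraries add nothing to the wave. That fit therefore cannot test a rise at ZT18. Within index column 7, Arg1 was 605 CPM in ZT0B, 516 and 535 in the ZT6 libraries and 765 in ZT12B. Arg1 was 1223 CPM in ZT18A, which held 117 Xist UMIs and 8.80 CPM of haemoglobin mRNA. It was 1054 CPM in ZT18B, which held 0 Xist UMIs and 293 CPM of haemoglobin mRNA. Whether the haemoglobin or Xist signal bears on Arg1 was not tested.

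The second question was where along the lobule the mRNAs are found. Dissociation removes position, so the cells of each library were ordered by 6 periportal landmark mRNAs (Cyp2f2, Hal, Ctsc, Hsd17b13, Pigr and Ftcd) against 7 pericentral ones (Cyp2e1, Gulo, Mgst1, Aldh1a1, Lect2, Cyp1a2 and Rgn), none of them a member, and the outer 2 of 3 equal parts of this order, called the pericentral and periportal ends, were summed. Genes kept out of the score checked the order: all 6 pericentral genes and all 5 periportal genes set aside for this differed in the stated direction, among them Cyp2c37 and Cyp2a5, drug-metabolizing cytochromes, at -5.42 ± 0.13 and -4.96 ± 0.17 log2 units (SE), and Aldh1b1 and Cdh1 at 4.83 ± 0.15 and 4.26 ± 0.18.

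All members but Nags were higher on the periportal side. Of 6 members, 5 passed with periportal cells higher, beside 11.4% of all 8916 genes; 12.9% passed the other way, 24.3% in all, and no member was among the latter. The median difference was 0.74 log2 units over the members and -0.01 over all genes. Ass1 differed most, 0.95 ± 0.10 log2 units (SE; 1.93-fold; edgeR adjusted p = 4.53e-09), followed by Arg1 at 0.75 ± 0.10 (2.74e-07), Asl at 0.74 ± 0.08 (2.1e-09), Cps1 at 0.73 ± 0.08 (2.35e-09) and Otc at 0.39 ± 0.06 (1.25e-05). Each of these 5 was higher at the periportal end of all 10 libraries, which 3.86% of all genes were. Nags differed by -0.06 ± 0.10 log2 units (edgeR adjusted p = 0.732) and was higher periportally in 3 of 10 libraries, with 554 pericentral and 502 periportal UMIs. Without a correction for RNA composition the periportal share of calls over all genes fell from 47.0% to 28.7% and the median of all genes moved to -0.10, and the same 5 members were called. Of 6 cholangiocyte (bile duct) markers, the summed level was 13.2 to 220 CPM at the periportal and 1.55 to 23.0 CPM at the pericentral end, nearly all from Spp1 and Sox9, while Krt19, Krt7, Epcam and Cldn7 stayed at or below 0.813 CPM in every library.

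At the pericentral and periportal ends, Nags averaged 37.6 ± 4.7 and 33.1 ± 8.9 CPM (SD, n = 10 here and in the next sentences). Cps1 averaged 2022 ± 499 and 3198 ± 981 CPM, and Otc 346 ± 43 and 429 ± 77. Ass1 averaged 492 ± 63 and 937 ± 329 CPM, Asl 204 ± 47 and 322 ± 72, and Arg1 591 ± 262 and 899 ± 224. For the members other than Ass1, levels at the 2 ends thus overlapped between libraries. Every periportal Ass1 level lay above every pericentral one, and how many of all genes did so was not counted. For the 5 members other than Nags the ends were ordered within each library.

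Divided into 8 equal layers, the order gave each mRNA a shape. From layer 1, the most pericentral, to layer 8, Cps1 rose from 1422 to 3236 CPM, and 69.2% of that rise lay between layers 1 and 3. Arg1 climbed as early (69.6% by layer 3), from 436 CPM to its highest mean, 912 in layer 6, as did Asl (67.3%), from 156 to 323 CPM in layer 6. Ass1 rose more evenly, 49.1% by layer 3, from 367 to 968 CPM in layer 8. Otc rose from 296 CPM in layer 1 to 439 in layer 7, 1.48 times. Nags stayed between 31.8 and 39.7 CPM, with single layers of single libraries as low as 6.25 CPM. Cps1, Otc, Asl and Arg1 were lowest in layer 1 in 10 of 10 libraries and Ass1 in 9, Nags in 0. How many of all genes were lowest there was not counted. The plot by layer thus shows a steep rise to layer 3 and a slower change beyond it for Cps1, Asl and Arg1. Asl still climbed at ZT18, from 271 CPM in layer 3 to 359 in layer 8. For Ass1 the mean slope goes on to the portal side. That later rise was largest in the C libraries. From layer 5 to layer 8 it ran from 1238 to 1773 CPM in ZT0C and from 1071 to 1458 in ZT12C. In the others it was smaller or absent, as in ZT0A (685 and 770) and ZT6A (942 and 818).

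**Figure D2:**
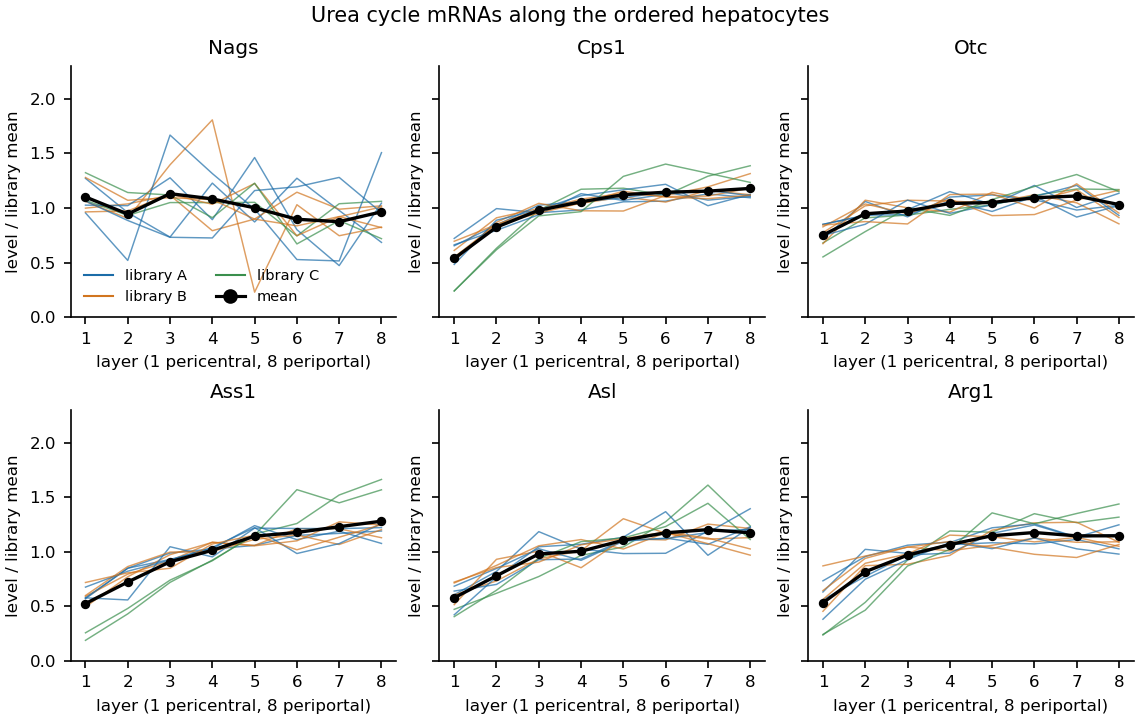
Level in 8 equal layers of the cell order (1 pericentral, 8 periportal) divided by the library's mean over layers; thin lines are the 10 libraries, coloured by letter, and black points the mean. Cps1 reaches 0.979 of the library mean by layer 3 and 1.18 in layer 8, Ass1 goes from 0.525 to 1.28, and Nags stays between 0.875 and 1.13.

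The size of the gradient differed between libraries, and both C libraries had the steepest for Cps1, Otc, Ass1, Asl and Arg1. On the log2(CPM + 1) scale the Ass1 difference was 1.72 in ZT0C and 1.92 in ZT12C and between 0.53 and 0.82 in the other 8. The Cps1 difference was 1.20 and 1.24 in the C libraries and 0.35 to 0.64 elsewhere. The Arg1 difference was 1.35 and 1.53 in the C libraries and 0.10 to 0.95 elsewhere. Asl followed with 1.26 in ZT0C and 0.96 in ZT12C, beside at most 0.78, and Otc with 0.49 and 0.64, beside at most 0.39. The landmarks themselves were further apart there, by a mean of 4.05 and 5.00 log2 units per landmark in ZT0C and ZT12C, 4.03 in ZT12A and 3.21 to 3.69 in the rest, and the pericentral ends of these 3 libraries held 2067, 3736 and 1756 CPM of Glul (ZT0C, ZT12C and ZT12A) beside 170 to 679 elsewhere; the part of these in the steeper gradients was not tested. The ends are shares of the cells captured, not of the lobule. Without both C libraries the 5 calls remained, with edgeR differences of 0.71 for Ass1, 0.62 for Asl, 0.58 for Cps1, 0.55 for Arg1 and 0.31 for Otc.

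**Figure D3:**
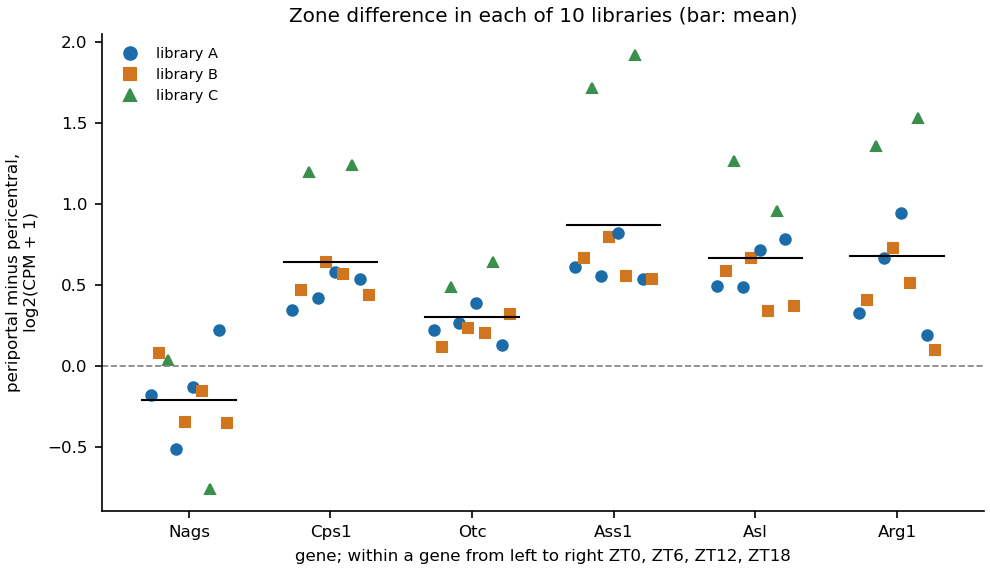
Periportal minus pericentral level of each mRNA on the log2(CPM + 1) scale in every library, in order of time within a gene; bars are means over 10 libraries. The 5 genes other than Nags lie above 0 in every library, and triangles, the C libraries, are highest for the same 5.

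Set against each other within libraries, Ass1 had the largest mean difference and Otc the smallest of the 5 zoned members. Of 15 pairs of members, 12 differed in their zone difference by an exact two-sided sign-flip permutation test over the 10 libraries, adjusted over the pairs; the smallest raw p it can give is 0.00195. This treats libraries as independent. The ZT0 and ZT12 library of each letter, which share an index column, were then flipped together (7 units, smallest p 0.0156). In that form 7 pairs passed (adjusted exact p = 0.0335 each): Otc below Cps1, Ass1 and Asl, Cps1 below Ass1, and Nags below Cps1, Ass1 and Asl. The ZT6 and ZT18 libraries stayed separate units, although both ZT6 libraries share a column with ZT0B and ZT12B, and both ZT18 libraries share another. Otc was shallower than Cps1 by 0.34 log2 units (SD 0.20, in 10 of 10 libraries, adjusted exact p = 0.00488), than Asl by 0.36 (SD 0.22) and than Arg1 by 0.38 (SD 0.35, adjusted exact p = 0.0146), where Cps1 and Otc act in sequence in mitochondria; flipped together, Otc against Arg1 gave 0.0639. Ass1 exceeded Cps1 by 0.23 (SD 0.22, adjusted exact p = 0.00977), Arg1 by 0.19 (SD 0.21, 0.0346) and Asl by 0.20 (SD 0.31, 0.0488); leaving out 1 library lost the Arg1 comparison in 6 of 10 cases and the Asl comparison in 9, and flipping together gave 0.0639 and 0.156. Nags was below each other member, by 0.51 for Otc to 1.08 for Ass1, with an adjusted exact p of 0.0521 against Otc and Arg1 when flipped together. Cps1, Asl and Arg1 could not be ordered: their differences were 0.01 to 0.03 in size, with SDs of 0.17 to 0.32 and adjusted exact p-values of 0.735 to 0.916. Without both C libraries 9 pairs passed, and those lost were Ass1 against Asl (0.195) and Arg1 (0.139), and Otc against Arg1 (0.0586).

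The third question was whether time and position act together. At ZT0 and ZT12 the 5 zoned members were all called periportal (6.3% and 4.36% of all genes were), at ZT6 all but Otc (4 members; 3.42%), and at ZT18 Cps1 and Asl (2 members; 2.61%). At ZT18, with 2 libraries, the differences were 0.56 ± 0.17 log2 units (SE) for Cps1, 0.64 ± 0.17 for Asl, 0.61 ± 0.22 for Ass1 (edgeR adjusted p = 0.103), 0.30 ± 0.14 for Otc (0.267) and 0.22 ± 0.19 for Arg1 (0.636). Which members are called at ZT18 depends on the setting: Cps1 was lost in 8 of 25 alternatives, Asl in 4, and Ass1 was called in 7. These alternatives include an order by 8 + 8 landmarks with Ass1, Asl and Oat among them, where Ass1 differed by 0.93 log2 units. There Ass1 and Asl help to order the cells, so their calls in that setting are circular and are no support. With 1 ZT18 library left, assumed to vary like the other groups, the difference was 0.53 (without A) and 0.61 (without B) for Cps1 (edgeR adjusted p = 0.435 and 0.292) and 0.46 and 0.85 for Asl (0.503 and 0.0881). Cps1 was also lost without ZT6A (0.0607) or ZT6B (0.0528), and Ass1 was called without ZT0C (edgeR adjusted p = 0.00498), ZT12C (0.0341) or both (5.18e-05).

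The fitted gradient of Arg1 spanned the widest range over the 4 times among the members. Its pericentral end was at 701, 505 and 339 CPM at ZT0, then 383 and 386 at ZT6, 502, 593 and 415 in the ZT12 libraries, and 1095 and 986 at ZT18. Its periportal end was at 880.3, 671 and 869 CPM at ZT0, then 608 and 640.4 at ZT6, 968, 847 and 1201 in the ZT12 libraries, and 1252 and 1054 at ZT18. In pericentral cells both ZT18 libraries were above all others, while in periportal cells ZT12C lay between them. The share of all genes with such a separation in pericentral cells was not counted. In the outermost pericentral layer the mean was 904 ± 18 CPM at ZT18 (SD, n = 2) and 267 to 355 at the other times. The fitted difference was 0.79 ± 0.16 log2 units (SE) at ZT0, 0.80 ± 0.20 and 1.06 ± 0.16 at ZT6 and ZT12, and 0.22 ± 0.19 at ZT18. The test of the change itself, a rhythm that depends on zone, did not pass for Arg1 (amplitude of the zone difference 0.33, unadjusted p = 0.0809, edgeR adjusted p = 0.834), and 0.0561% of all genes passed. It called 0 of 6 members, with 0 at an unadjusted p under 0.05 (6.18% of all genes), and DESeq2 and limma-voom called 0 as well. Without ZT0C it called Arg1 (amplitude 0.44, edgeR adjusted p = 0.0266). Glul at the pericentral end was at 390 and 170.0 CPM at ZT18, but at 372 and 366 in ZT0A and ZT0B, where Arg1 differed by 0.33 and 0.41 log2 units, against 0.19 and 0.10 at ZT18; its part in the Arg1 values was not tested. Cps1, measured in the same cells, differed by 0.54 and 0.44 at ZT18 and by 0.35 to 1.24 at the other times.

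**Figure D4:**
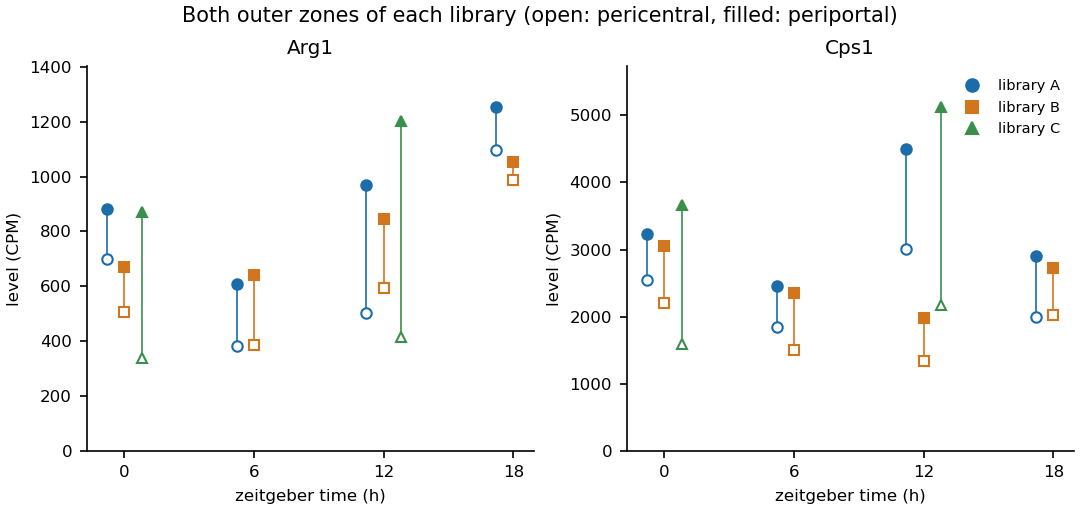
Level (CPM, linear axis from 0) of Arg1 and Cps1 in the pericentral (open) and periportal (filled) end of each library against zeitgeber time; a line joins the 2 ends of 1 library. For Arg1 the lines are shortest at ZT18, where the pericentral ends are at 1095 and 986 CPM; for Cps1 the shortest is in ZT6A.

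The share of cells with detected mRNA differed along the lobule in the same direction as the totals for the 5 zoned members. After each cell was thinned to 1000 UMIs, Ass1 was detected in 37.8 ± 4.5% of pericentral and 57.8 ± 11.6% of periportal cells (SD, n = 10), and Arg1 in 41.5 ± 13.3% and 58.3 ± 9.1%. Cps1 was detected in 74.4 ± 9.5% and 92.9 ± 4.8%, Asl in 17.99 ± 4.1% and 25.8 ± 4.4%, Otc in 30.7 ± 3.4% and 35.2 ± 5.0% and Nags in 3.63 ± 0.56% and 3.48 ± 1.28%. Without thinning the pericentral and periportal shares were 84.9% and 98.4% for Cps1, 59.5% and 80.1% for Ass1 and 7.97% and 7.48% for Nags. Cells that lack these mRNAs were not searched for, so the level that free RNA gives was not measured.

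Likeness to other genes was measured over 80 points, the 8 layers of 10 libraries with each library's mean removed, among genes of at least 20 CPM; the points share libraries and depth, and the correlations are descriptions. Members were among the nearest genes of other members: those of Cps1 were C9, a terminal complement protein (r = 0.964), Arg1 (0.956) and Ass1 (0.940). For Arg1 the nearest were Cps1, the serine transporter Sfxn1 (0.945) and C9 (0.939). For Ass1 they were Serpina1e (0.951), a secreted protease inhibitor, Sfxn1 (0.947) and Cps1. Asl was most like Uroc1 (0.922), an enzyme of histidine breakdown, Sfxn1 (0.914) and Ahsg (0.912), a plasma protein. Otc was most like Serpina1e (0.844), Ass1 (0.837) and Arg1 (0.828). Nags stood outside this set, with its nearest genes Acp2 (0.615), BC048546 (0.491) and Rwdd1 (0.466) and r = -0.16 with Cps1. Its 80 points rest on 1570 UMIs in all, beside 111296 for Cps1, and how far low counts lower its r was not tested.

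Genes around the cycle were found on both sides. Among 14 tested (of 15 listed) enzymes and carriers that bring in nitrogen and aspartate, 7 were higher periportally, 3 pericentrally and 4 did not pass, with a median of 0.17 log2 units. Gls2, the liver glutaminase that frees ammonia from glutamine, had a periportal difference of 2.86 ± 0.19 (SE; 7.27-fold), larger than that of any member, and Got1, a cytosolic source of aspartate, one of 1.05 ± 0.08. Car5a, which supplies mitochondrial bicarbonate, was at -0.50 ± 0.10 and the aspartate carrier Slc25a13 at -0.26 ± 0.06. Both were higher pericentrally in 10 of 10 libraries in CPM, without correction for RNA composition, and the share over all genes was not counted. Both calls were lost in cells of at least 3000 UMIs (edgeR adjusted p = 0.110 and 0.207), where 5 genes of this list passed. They were also lost in cells thinned to 1000 UMIs (edgeR adjusted p = 0.0585 and 0.0827). Of 7 tested membrane transporters (of 8 listed), 5 were periportal and 2 pericentral: the cationic amino acid transporter Slc7a2 was at 1.01 ± 0.07 and the neutral one Slc43a1 at 0.87 ± 0.28 (on 42 pericentral and 73 periportal UMIs, and the call was lost in 7 of 25 alternatives), the ammonium transporter Rhbg at -3.23 ± 0.32 and the channel Aqp9 at -1.30 ± 0.09.

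Of 5 tested genes that consume arginine or ornithine or control that use, 1 was periportal, 2 pericentral and 2 did not pass: Odc1, the first enzyme of polyamine synthesis, was at 0.48 ± 0.09, Agmat at -0.33 ± 0.08 and Oat, which turns ornithine towards glutamate, at -5.21 ± 0.14 (36.9-fold higher pericentrally). The Agmat call was lost in cells of at least 3000 UMIs (edgeR adjusted p = 0.063). Both genes of glutamine synthesis and its glutamate supply were pericentral, Glul at -4.03 ± 0.21 and the glutamate transporter Slc1a2 at -6.70 ± 0.20. Of 14 transcription factors, receptors and deacylases known to act on the cycle, 3 were periportal, 3 pericentral and 8 did not pass, with a median of 0.00: the coactivator Ppargc1a was at 1.75 ± 0.16, Cebpb at -0.72 ± 0.07 and the mitochondrial deacylase Sirt5, which acts on Cps1, at -0.59 ± 0.17. The 6 regulators past the threshold became 3 with DESeq2, a filter of 20 CPM, the even-numbered landmarks, thinned cells, or without the top 5% of cells by UMIs. Sirt5 was lost with thinned cells (edgeR adjusted p = 0.369) and with the outer eighths (0.0601).

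**Figure D5:**
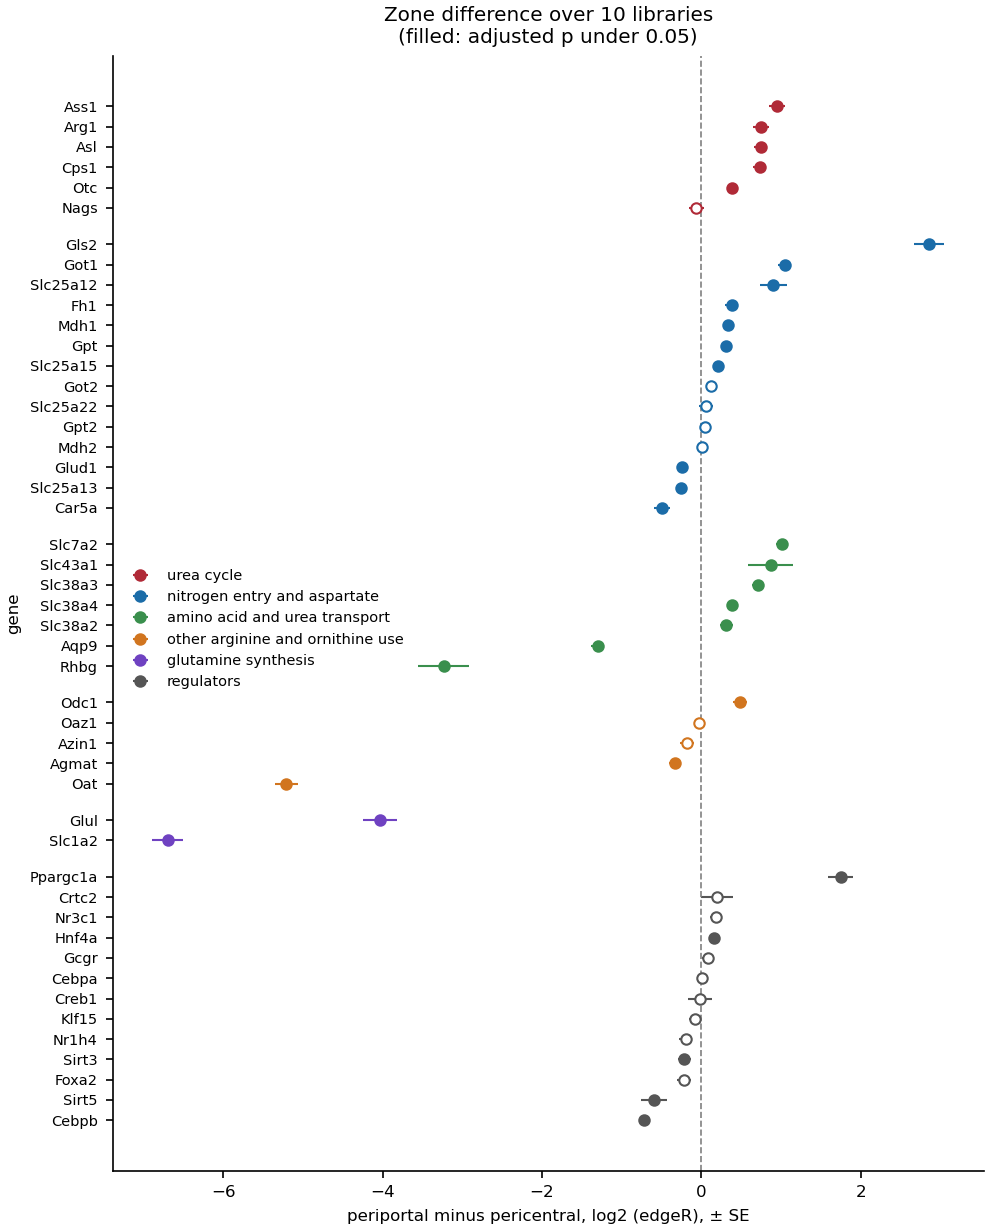
Periportal minus pericentral difference (log2, edgeR) with its SE for the members and 5 lists of neighbouring genes (1 regulator not shown), ordered by size within a list; filled points passed the threshold of 0.05. The members lie between -0.06 and 0.95, while Gls2 is at 2.86 and Slc1a2 at -6.70.

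In time, 3 of 7 transporters had a 24-h rhythm, among them Slc7a2 (amplitude 1.16 log2 units, peak ZT9.26, edgeR adjusted p = 7.44e-04) and the amino acid carrier Slc38a2 (0.86, ZT9.84, 0.0259), the latter lost without ZT0B, ZT12A, ZT12C or ZT18B (edgeR adjusted p = 0.0579 to 0.0749). The other was Slc38a3, a glutamine carrier (0.65, ZT9.31, edgeR adjusted p = 0.0343), named here after its values were seen. The count of 3 fell to 1 without ZT12C or without ZT18B. Slc7a2, through which arginine and ornithine enter the cell, was at 80.6, 106 and 142 CPM at ZT0, then 306 and 295 at ZT6, 427, 283 and 516 in the ZT12 libraries, and 96.8 and 100.0 at ZT18, so that ZT6 and ZT12 lay above ZT0 and ZT18 in every library. How many of all genes split in this way was not counted. The fitted peak of Arg1, at ZT17.7, came later in the cycle. Odc1, which uses the ornithine that Arg1 makes, peaked at ZT18.7 (amplitude 0.78, edgeR adjusted p = 0.0283), with 94.4, 136 and 96.7 CPM at ZT0, then 58.9 and 52.9 at ZT6, 58.4, 126 and 109 in the ZT12 libraries, and 149.6 and 158 at ZT18. Both ZT18 libraries were the highest and ZT12A was as low as ZT6; its call was lost without either ZT6 or either ZT18 library (edgeR adjusted p = 0.0800 to 0.121) and without both ZT18 libraries (0.202). Ppargc1a, the 1 rhythmic regulator of 14, peaked at ZT10.1 (amplitude 0.69, edgeR adjusted p = 0.00828); with DESeq2 or the index column as a block the regulators' count was 3. No gene of nitrogen entry (0 of 14) or glutamine synthesis (0 of 2) passed, beside 5.14% of all genes; with DESeq2 the counts were 2 and 0, with the index column as a block 1 and 1, and at an unadjusted p under 0.05 edgeR gave 4 and 0, where 20.4% of all genes passed.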

How the data were processed

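UMI counts per cell were deposited by the authors in 10 tables, raw and not normalized as the values show (whole numbers with unequal totals per cell). The submitters' processing notes name Cell Ranger and the builds mm10 and hg19 without a version or role; the annotation, cell filter and treatment of doublets are not given in the sources used here, and doublets were not removed. Deposited cells held 1048 to 10001 UMIs, with 8.70% to 34.4% mitochondrially encoded. Cells are named by number only, so barcodes shared between libraries could not be counted. Of the 14812 entries, 14320 matched a GENCODE M21 symbol; 1 name occurred more than once; no column of per-sample values was left unused (0).

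The members and gene lists were chosen with earlier results of these data known. Counts were summed per library for time and for the outer 2 of 3 equal parts of the cell order for zone (z-scored log of UMIs per 10000; library as a block in the fit), and tested with edgeR 4.0.16 (glmQLFit, glmQLFTest; R 4.3.3; TMM; genes of at least 3 CPM) with Benjamini-Hochberg adjustment over all genes and a threshold of 0.05; landmarks were left out of counts of calls. Differences between members used log2(CPM + 1) and an exact sign-flip permutation test (scipy 1.17.1). Named genes were the members and, per list, the 2 largest differences in each direction and the 2 largest amplitudes past the threshold; 1 gene this rule names is not reported here. The edgeR fits of rhythm, zone and zone-dependent rhythm were run on simulated counts with independent libraries and a fixed spread. That simulation left out deviations shared between libraries, the cell order and the sign-flip test, so it cannot speak to these. Alternatives were DESeq2 1.42.0, limma-voom 3.58.1, other scalings, filters, landmarks, cell sets and parts of the order, and leaving out libraries; leaving out both ZT18 or both C libraries, and flipping libraries together, was chosen after seeing the data. Same-lettered ZT0 and ZT12 libraries, which share an index column, deviated together from the means of their times (r = 0.239, 0.428 and 0.485 over genes). Same letters at other pairs of times gave r = -0.04 to 0.11. At ZT6 and at ZT18 both libraries share an index column, so subtracting the mean of the time removes what they share. The r values with ZT6 or ZT18 therefore cannot show shared deviations. Replicates were not copies of each other (chi-square per degree of freedom of at least 5.30). It was 5.66 at ZT6 and 5.30 at ZT18, where both libraries share an index column. Between the ZT0 or ZT12 libraries, which are in different columns, it was 20.9 to 63.6. The spread within ZT6 and ZT18 thus holds no difference between index columns, and the part of the column in the p-values was not tested.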

Additional observations from a re-analysis of the deposited data

How the results depend on the processing

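The zone calls of Cps1, Otc, Ass1, Asl and Arg1 kept their direction and side of the threshold under all 27 alternatives, with differences of 0.58 to 1.32, 0.27 to 0.57, 0.71 to 1.44, 0.62 to 1.24 and 0.55 to 1.24 log2 units. The alternatives include the order by 8 + 8 landmarks with Ass1, Asl and Oat among them. That order cannot test the calls of Ass1 and Asl, because it is built in part from their own counts. Nags was never called, and without the top 5% of cells its difference was 0.0205. For rhythm, the index column as a block takes up both ZT18 libraries, which alone are in column 4, so the wave then rests on the other times. The number of members with a 24-h rhythm was 0 with the index column as a block, for any difference among the 4 times and without both ZT18 libraries, and 0 to 1 on leaving out 1 library; the cause was not tested. Members that differed between times numbered 0 to 1, and members with a zone-dependent rhythm 0 to 1, on leaving out 1 library. The amplitude of the Arg1 zone difference was 0.18 with another peak time without both ZT18 libraries. Calls at the 4 times summed to 16, and to between 11 and 17 over the alternatives. Pairs that could not be ordered changed sign: on leaving out 1 library, Cps1 minus Asl ran from -0.0558 to 0.0026, Cps1 minus Arg1 from -0.0750 to 0.0037 and Asl minus Arg1 from -0.0776 to 0.0517, and without both C libraries the last 2 were 0.0147 and 0.0694. The number of pairs that passed was 7 with libraries flipped together, where fewer units raise the smallest p, and 9 to 12 otherwise; Ass1 against Asl was lost in 11 of 14 alternatives, Ass1 against Arg1 in 9.

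Letters share an index column between ZT0 and ZT12 but not with ZT18; with the letters fitted as a replicate block, 1 member had a rhythm (Arg1, amplitude 0.59, edgeR adjusted p = 0.0195); rhythmic genes numbered 2 for nitrogen entry, 1 for glutamine synthesis and 3 for regulators, beside 0, 0 and 1 without the block; with the index column as a block they were 1, 1 and 3, and 2 for arginine and ornithine use beside 1. Scaling by library size alone moved the median of all genes from 0.00 to 0.13 for ZT12 against ZT0 and from -0.03 to -0.17 for ZT18 against ZT12, and the share of calls that were higher from 50.7% to 66.7% and from 61.6% to 47.4%; no Arg1 call changed. Depth limits Nags most, with 1570 UMIs in all.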
